A study of Mus musculus with 40 samples.

Results

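The cerebella of wild-type (WT) mice aged 6 months were compared here with those of WT mice aged 3 months. Members were the 10 WT libraries of these ages, of 40 libraries in the series, and the genes with at least 1 CPM (counts scaled to 1000000 per library) in every library of either age, which were 13078 of the 21967 genes counted. The series holds polyadenylated RNA from whole cerebella of WT mice and of SCA6 84Q/+ mice, which carry an expanded CAG repeat knocked into 1 allele of Cacna1a and model spinocerebellar ataxia type 6. Both genotypes were sequenced at 3, 6, 12 and 19 months with 5 libraries each, and the study asked which transcripts accompany disease in this model. Both groups compared here carry no knock-in and received no treatment that the labels name, so the difference between them is one of age, and of whatever else was collected with age. The 10 SCA6 84Q/+ libraries of 3 and 6 months served as a separate set in which the same ages were compared.

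The cerebellar cortex is built from granule cells, which are the most numerous neurons of the brain, from Purkinje cells, which are its only output, and from inhibitory interneurons and Bergmann glia. Its white matter is ensheathed by oligodendrocytes, whose membranes are rich in cholesterol and in a small set of abundant proteins. Below the cortex lie the cerebellar nuclei, and the tissue borders the brainstem and the choroid plexus. A mouse at 3 months has finished cerebellar development, and at 6 months it is a mature adult, while myelin turnover and the tuning of receptors and channels continue in adult life.

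Between 3 and 6 months 1741 of the 13078 genes were called, or 13.3%. Of these 1073 were higher at 6 months (8.2%) and 668 were lower (5.11%). Calls required an absolute log2 fold change of at least 0.3 and, in edgeR's quasi-likelihood test, an adjusted p no higher than 0.05. Of the genes of oligodendrocytes and myelin 13 of 20 were called lower, while cholesterol synthesis (24 genes) and GABA and glycine receptors (18 genes) each gave 9 lower calls and 1 higher. The clock genes were called in both directions. Markers of granule cells were higher where called, and 0 of 81 cytosolic ribosomal protein genes, 0 of 78 nuclear-encoded subunits of the respiratory chain and 0 of 37 proteasome subunits were called. Most differences were small. Of the called genes 1241 had an absolute log2 fold change under 0.5 and 39 had one over 1, of which 19 were higher and 20 were lower. The libraries of both ages did not overlap for 2812 genes, which is 21.5% of those tested.

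**Figure D1:**
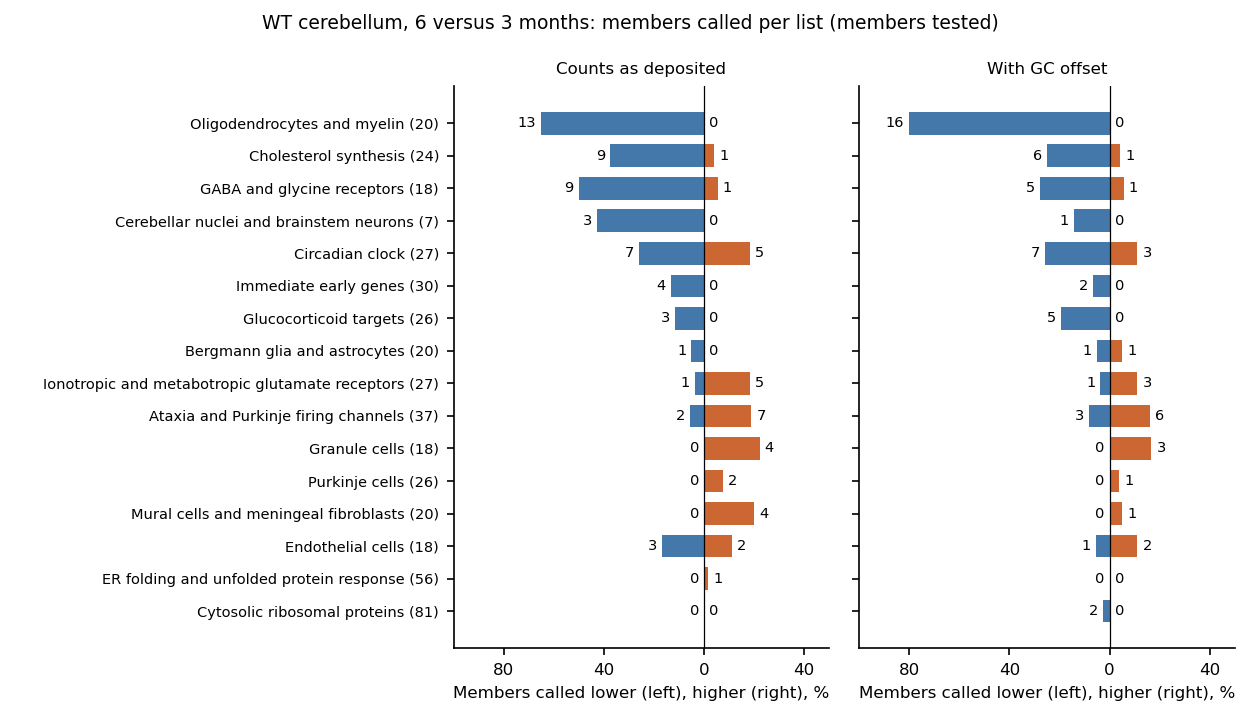
Share of the tested members of 16 gene lists that were called lower (blue, to the left) or higher (orange, to the right) at 6 than at 3 months, with the number of members called at the end of each bar and the number tested after each name. The left panel uses the counts as deposited and the right panel adds an offset for GC content; 13 of 20 myelin genes were called lower in the left panel and 16 in the right.

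Some properties of the libraries moved with age. In the 3-month libraries the deviation of a gene from its mean over libraries fell with the GC content of its transcript (Spearman rho -0.323 to -0.528, across genes, which are not replicates), and at 6 months rho was 0.428, -0.215, 0.656, 0.38 and 0.297 in replicates 1 to 5. The log2 fold change between the ages therefore correlated with GC content at a rho of 0.578 over 12418 genes, and the median GC content was 56.325% for genes called higher, 42.345% for genes called lower and 49.73% for all genes tested. An offset fitted to GC content in each library, chosen after the data were seen, took rho to 0.00359 and left 1037 called genes (7.93%), 626 higher (4.79%) and 411 lower (3.14%). The lower calls with the offset fell to 235 and 255 without 3-month replicates 2 and 5, and to 238 and 262 without 6-month replicates 1 and 3. Of the 1741 genes 814 (46.8%) were also called with the offset, all in the same direction, and they made up 78.5% of the genes called with it. Values with this offset stand beside many of the results below, and its share in the age difference itself was not tested.

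**Figure D2:**
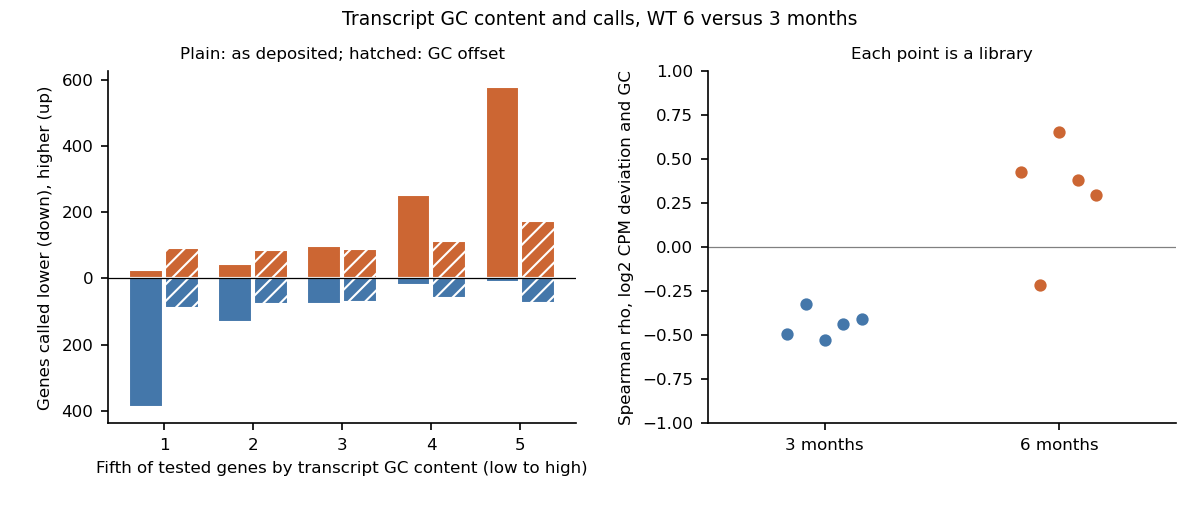
Left, number of genes called higher (up) or lower (down) at 6 months in each of 5 equal bins of the tested genes by GC content of the transcript, as deposited (plain) and with the GC offset (hatched); the highest bin held 578 genes called higher and 11 called lower as deposited, and 174 and 74 with the offset. Right, Spearman rho between the log2 CPM deviation of each gene and its GC content in each library; all 3-month points lie below 0 and all 6-month points but replicate 2 lie above.

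Transcripts of the Y chromosome were present in replicates 2 and 5 at 3 months and in replicates 1, 3 and 4 at 6 months, so both ages held libraries of both kinds. The first number in the library names, called the ID number here, was 34 or 35 at 3 months and 7, 8 or 10 at 6 months, and no source used here explains it. In SCA6 84Q/+ the ID number was 34 at 3 months and 7 or 8 at 6 months, numbers that WT libraries of the same ages carry too. Age and ID number cannot be told apart in either genotype. Without the 3 libraries of ID number 35, which leaves 2 libraries at 3 months, 0 genes were called by edgeR and 3079 had an unadjusted p under 0.05. The choroid plexus markers summed to 219 CPM in 6-month replicate 1 and to between 1641 and 5325 CPM in the other 9 libraries. With the mean log2 CPM of these markers as a covariate 1630 genes were called. In the SCA6 84Q/+ set 2 libraries went against their labels. Of 7 genes that separated the genotypes at 6, 12 and 19 months without overlap, all 7 on chromosome 8 as Cacna1a is, 6, 7 and 7 lay outside the WT 3-month range in the 3-month SCA6 84Q/+ libraries 1, 4 and 5, but 0 and 1 in libraries 2 and 3. This check was chosen after the libraries were known to stand apart, and counts in SCA6 84Q/+ are given with both libraries and without, whereas values of single genes include both unless stated. The cerebellar identity of the tissue was plain in its markers. Pcp2, a Purkinje cell gene, lay at 252 to 305 CPM at 3 months and 267 to 348 CPM at 6 months, and Gabra6, a granule cell receptor subunit, at 1062 to 1265 and 961 to 1223 CPM.

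Oligodendrocyte transcripts were lower in most cases. Of 20 genes of oligodendrocytes and myelin 13 were lower at 6 months, 0 were higher, and their median log2 fold change was -0.494, against -0.00122 over all genes tested and a background of 5.11% called lower. In 12 of the 20 the libraries of both ages did not overlap, against 21.5% of all genes. Mog, a glycoprotein on the surface of the sheath, was present at 78.8, 106, 79.0, 87.1 and 101 CPM in the 5 libraries of 3 months and at 55.5, 53.2, 55.2, 64.3 and 75.6 CPM in those of 6 months. All 6-month libraries lay below all 3-month libraries, and the log2 fold change was -0.59 (adjusted p = 0.00239, standard error 0.11). Mbp, the myelin basic protein that compacts the sheath, stood at 2546, 3499, 2639, 2859 and 3179 CPM against 2144, 2037, 2482, 2249 and 2476 CPM, a log2 fold change of -0.39 (adjusted p = 0.00591, standard error 0.086). Its groups also did not overlap. The tetraspanin Tspan2 fell from a range of 164 to 188 CPM to one of 102 to 133 CPM, with a log2 fold change of -0.57 (adjusted p = 0.000653, standard error 0.068).

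Enzymes that make the myelin lipids and proteins that hold the sheath followed. Ugt8a, which makes galactocerebroside, fell by 0.64 on the log2 scale, from 77.8, 106, 90.4, 86.6 and 100.1 CPM to 54.3, 63.6, 55.6, 57.3 and 70.3 CPM. Aspa, which cleaves N-acetylaspartate, had a log2 fold change of -0.65, and Opalin, a glycoprotein of the sheath, one of -0.87. In Opalin the 6-month libraries were themselves uneven, at 7.61, 10.5, 7.86, 18.1 and 19.1 CPM, with replicates 4 and 5 nearest to the 3-month range of 20.1 to 25.7 CPM. The junction protein Cldn11 (-0.55), the raft protein Mal (-0.56), Ermn (-0.55), Mobp (-0.44), Enpp6 (-0.57), a marker of newly forming oligodendrocytes, and the connexin Gjc3 (-0.30) were also called lower. The other 7 genes were not called. Among them Myrf, the transcription factor that drives myelin genes, was at 47.4 ± 7.55 CPM at 3 months and 48.7 ± 6.30 at 6 months (SD, n = 5 each), with a log2 fold change of 0.017 (adjusted p = 0.921, standard error 0.11). Mag, an adhesion molecule of the inner sheath, had -0.13 (adjusted p = 0.350), and Cnp, a phosphodiesterase of non-compact myelin, -0.19 (adjusted p = 0.0403).

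Under the GC offset 16 of the 20 myelin genes were called lower and all 20 had a log2 fold change below 0, with a median of -0.429. Gjc3 was no longer called, and Mag, Cnp, Bcas1 and Fa2h were. The count of 16 became 11 without 3-month replicate 2 or 5, 8 without the libraries of ID number 7 and 10 without 6-month replicates 1 and 3. In libraries without Y-linked transcripts edgeR called 0 with the offset, with a median of -0.241 and all 20 below 0. In SCA6 84Q/+ cerebella 13 of the 20 were called lower between the same ages and 0 higher, with a median of -0.335 (9 and a median of -0.313 without 3-month libraries 2 and 3). Summed over the list, WT libraries held 6861 to 9326 CPM at 3 months (median 7577) and 5411 to 6484 at 6 months (median 5653), and the medians were 6497 at 12 months and 7060 at 19 months. In such bulk samples fewer oligodendrocytes and less RNA per oligodendrocyte cannot be told apart. Of 12 precursor markers 1 was higher (Cspg4, 0.36) and 1 was lower (Vcan, -0.32), and Pdgfra, their defining receptor, was at 28.8 ± 5.79 CPM at 3 months and 24.5 ± 2.34 at 6 months (SD, n = 5 each). Cspg4 was not called without 6-month replicate 3, nor Vcan without it or without 3-month replicate 3 or 5. Neither gene was called with the GC offset.

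**Figure D3:**
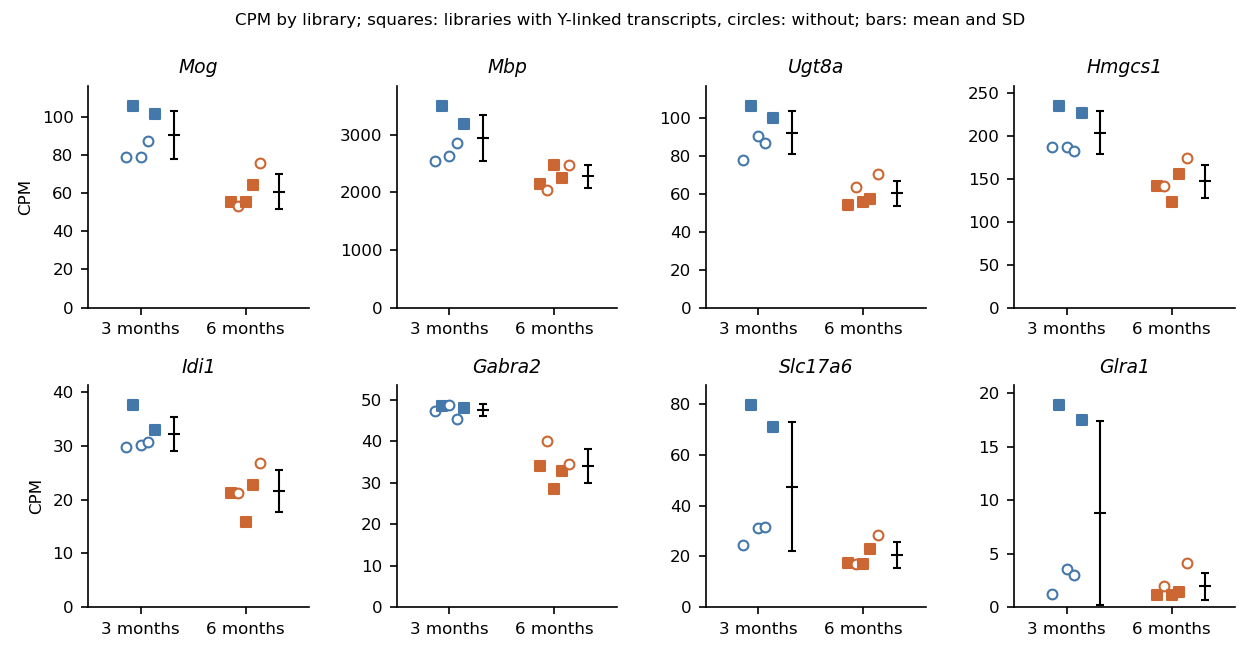
CPM of 8 genes in each WT library at 3 months (blue) and 6 months (orange), with squares for libraries with Y-linked transcripts, open circles for those without and bars for mean and SD of 5 libraries. Mog, Mbp and Ugt8a, of myelin, and Hmgcs1 and Idi1, of cholesterol synthesis, do not overlap between ages, whereas in Slc17a6 and Glra1 the 2 squares at 3 months lie above all other libraries.

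The size of the myelin difference varied with the kind of library. Among libraries with Y-linked transcripts (2 at 3 months, 3 at 6 months) 17 of the 20 genes were called lower with a median of -0.688. Among those without (3 and 2) 1 was called, with a median of -0.279 and 16 of 20 below 0. These alternatives were chosen after the data were seen, and the difference between the 2 kinds of library was not tested. The 3-month libraries with Y-linked transcripts also held more transcripts of the cerebellar nuclei and brainstem list, 765.8 and 657.6 CPM in sum against 321, 392.9 and 367.5 in the other 3, and 308.2 to 426.6 at 6 months. They were the highest in summed myelin CPM as well, at 9326 and 8740. The other 3 held 6861, 7249 and 7577 CPM of myelin transcripts, and the 6-month libraries 5411 to 6484. With a nuclei score as a covariate (the mean log2 CPM of Slc17a6, Meis2 and Spp1, chosen after the data were seen) 8 of the 20 myelin genes were called lower, with a median of -0.296, and with the GC offset as well 4 were, with a median of -0.22. The 3 genes of the score are those of the nuclei and brainstem list that were called lower, so the score itself differed between the ages. Calls lost with it, here and below, therefore cannot tell tissue content from age.

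Several of the lowest fold changes were in genes that were high in the same 2 libraries of 3 months. Of a list of 20 genes of cerebellar nuclei and brainstem neurons 7 were tested, 3 were called lower and 0 higher, against 5.11% and 8.2% of all genes, with a median of -0.399. Slc17a6, the vesicular glutamate transporter of these neurons, stood at 24.7, 79.4, 31.1, 31.5 and 70.9 CPM at 3 months and 17.3, 17.003, 16.9, 23.1 and 28.2 CPM at 6 months, a log2 fold change of -1.23 (adjusted p = 0.0112, standard error 0.31). Replicates 2 and 5 of 3 months were high and the other 3 reached at most 31.5 CPM, which overlapped the 6-month range. The pattern was shared by Glra1, the main adult glycine receptor subunit, at 1.22, 18.9, 3.53, 3.02 and 17.5 CPM against 1.14, 1.99, 1.17, 1.44 and 4.15 CPM. Its log2 fold change of -2.18 (adjusted p = 0.0302, standard error 0.69) was the lowest of all called genes. The homeobox gene Meis2 (-1.23), the potassium channel Kcnc2 (-1.22), the kainate receptor auxiliary subunit Neto1 (-1.23) and the heparan sulfate enzyme Ndst4 (-1.34) were highest in the same 2 libraries. Of these genes Slc17a6 and Meis2 belong to the list, and the others do not. Leaving out 3-month replicate 2, or replicate 5, ended the calls of Glra1, Meis2, Kcnc2 and Ndst4. The list then had 1 call, as it did without any 1 of 6-month replicates 1, 2, 3 and 4, whereas Slc17a6 and Neto1 were called whichever single library was left out. By limma voom, and by edgeR without the libraries of ID number 7, the list had 0 calls, and neither Slc17a6 nor Neto1 was called. In libraries without Y-linked transcripts the log2 fold changes were 0.22 for Glra1 and 0.0036 for Meis2, neither of them called, and the median of the list was -0.00541. With the GC offset 1 gene of the list was called lower, and Meis2 and Ndst4 were not called. That count was 0 without 3-month replicate 2 or 5 or 6-month replicate 1 or 2.

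Enzymes of cholesterol synthesis were lower where they were called, apart from 1. Of 24 genes 9 were lower and 1 was higher, against 5.11% and 8.2% of all genes, with a median log2 fold change of -0.254. Hmgcs1, which makes the precursor of mevalonate, was present at 187, 235, 187, 183 and 226 CPM at 3 months and 141, 141, 123, 156 and 174 CPM at 6 months. No 6-month library reached the lowest of 3 months, and the log2 fold change was -0.49 (adjusted p = 0.00340, standard error 0.095). The isomerase Idi1 fell from a range of 29.8 to 37.5 CPM to one of 15.9 to 26.9 CPM (log2 fold change -0.59, adjusted p = 0.00318, standard error 0.11). Later enzymes were also lower, among them Cyp51 (-0.34), Msmo1 (-0.40), Hsd17b7 (-0.38) and Sc5d (-0.31). Beside the enzymes Stard4, a carrier of cholesterol between membranes, was lower at -0.49 and Insig1, a brake on the sterol sensor, at -0.39. Tm7sf2, a sterol reductase, rose instead, from 12.1, 13.047, 12.6, 13.3 and 12.6 CPM to 19.8, 15.6, 21.7, 17.5 and 16.2 CPM, with a log2 fold change of 0.49 (adjusted p = 0.00233, standard error 0.087). Mvk, Pmvk and Mvd, which carry mevalonate to isopentenyl diphosphate, were not called, with log2 fold changes of -0.015, 0.045 and 0.12.

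Under the GC offset 6 of the 24 were called lower (among them Hmgcs1, Idi1, Fdft1, Msmo1 and Stard4) and Tm7sf2 was called higher, and the median was -0.271. This count of 6 became 12 without 6-month replicate 5 and 3 without 3-month replicate 5. With the nuclei score as a covariate 1 of the 24 was called lower and 1 higher, with a median of -0.0899, and with the GC offset as well edgeR called none, with a median of -0.109. By limma voom 3 were called lower. In SCA6 84Q/+ cerebella 12 of the 24 were lower and 0 were higher, with a median of -0.299 (10 and -0.282 without 3-month libraries 2 and 3). As deposited, 15 of the 24 were lower without the 6-month libraries of ID number 10, replicates 4 and 5, and without 3-month replicate 2 there were 5 (6 without replicate 5). Insig1 shows the unevenness at 6 months, at 56.9, 57.7, 54.1, 81.1 and 92.4 CPM, where the last 2 values, from ID number 10, met the 3-month range of 80.7 to 95.3 CPM. Among libraries without Y-linked transcripts none of the 24 was called by edgeR, and 21 of the 24 had a log2 fold change below 0.

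The circadian clock of mammalian cells is a feedback loop of transcription. The proteins of Arntl (BMAL1), Clock and Npas2 bind E-box motifs and drive Nr1d1, Nr1d2, Dbp, Tef, Ciart, Bhlhe41 and the Per and Cry genes, whose products in turn shut them off. The products of Nr1d1 and Nr1d2 repress Arntl, Npas2 and Nfil3 through motifs for orphan nuclear receptors. The promoters of 5 genes that were called are shown, with the motif searched for in capitals (the E-box CACGTG, the receptor motif TAGGTCA, which reads TGACCTA on the other strand, and a sterol motif TCACNCCAC), because members of the same list went in opposite directions. The sequences are from RefSeq promoters on GRCm38.p6, on the strand of the gene, and end at or before its start.
Ciart, chr3:95882229-95882388, minus strand: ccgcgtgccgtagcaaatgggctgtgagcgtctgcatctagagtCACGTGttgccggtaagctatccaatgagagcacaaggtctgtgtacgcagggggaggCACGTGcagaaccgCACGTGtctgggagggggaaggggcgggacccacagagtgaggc
Cry1, chr10:85185082-85185141, minus strand: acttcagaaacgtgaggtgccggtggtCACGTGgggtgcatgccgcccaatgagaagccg
Bhlhe41, chr6:145865541-145865600, minus strand: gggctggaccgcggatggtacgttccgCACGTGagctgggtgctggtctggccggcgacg
Nfil3, chr13:52981040-52981099, minus strand: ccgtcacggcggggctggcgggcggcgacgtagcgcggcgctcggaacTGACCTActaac
Hmgcs1, chr13:119690188-119690247, plus strand: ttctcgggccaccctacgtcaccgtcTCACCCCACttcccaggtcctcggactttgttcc

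Of 27 clock genes 12 were called, 5 higher and 7 lower, against 8.2% and 5.11% of all genes. In 12 the libraries of both ages did not overlap, against 21.5% of all genes. On the E-box side Ciart, a repressor of the loop whose promoter holds the motif at 3 places, stood at 23.6, 23.7, 23.3, 22.1 and 25.9 CPM at 3 months and 15.4, 10.8, 16.2, 18.3 and 14.7 CPM at 6 months. All 6-month libraries were lower, with a log2 fold change of -0.68 (adjusted p = 0.00150, standard error 0.11). Nr1d2, which encodes REV-ERB beta, was at 364, 346, 365, 355 and 354 CPM against 249, 263, 228, 268 and 274 CPM (log2 fold change -0.50, adjusted p = 0.000653, standard error 0.052). The groups were again well apart. The other genes called lower were the output factors Dbp (-0.54) and Tef (-0.37) and the repressors Per2 (-0.51), Cry1 (-0.32) and Bhlhe41 (-0.40).

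In the opposite direction Arntl rose from 43.6, 40.2, 50.011, 51.7 and 39.7 CPM to 67.6, 68.2, 58.2, 56.3 and 58.9 CPM, a log2 fold change of 0.44 (adjusted p = 0.00441, standard error 0.090), with no overlap between ages. Npas2 stood at 3.6018, 4.30, 3.13, 3.31 and 3.73 CPM against 6.57, 5.42, 5.93, 4.60 and 4.99 CPM (log2 fold change 0.59, adjusted p = 0.00407, standard error 0.12). Nfil3, which competes with Dbp for its sites, rose by a log2 fold change of 0.38, and Arntl2 (0.33) was also called higher. Not every arm of the loop was called. Per1 was at 77.4 ± 11.4 CPM at 3 months and 84.1 ± 16.5 at 6 months (SD, n = 5 each), Cry2 had a log2 fold change of -0.0058, Nr1d1 -0.12 (adjusted p = 0.312) and Clock itself -0.15 (adjusted p = 0.292).

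**Figure D4:**
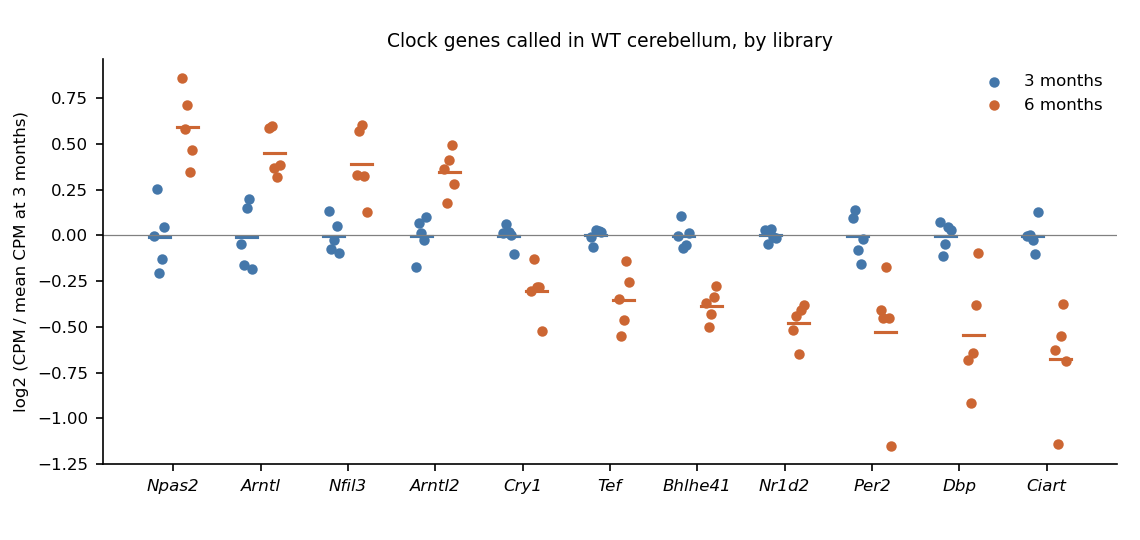
Log2 of CPM over the mean CPM at 3 months for 11 of the clock genes called between 3 and 6 months, with 1 point per WT library and a bar at the mean of each group (blue 3 months, orange 6 months). Npas2, Arntl, Nfil3 and Arntl2 lie above 0 at 6 months and the other 7 below, with log2 fold changes from 0.59 in Npas2 to -0.68 in Ciart.

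The same 7 clock genes were called lower with the GC offset, and Arntl, Arntl2 and Npas2 higher. When the nuclei score was a covariate 2 were called higher and 5 lower, and with the offset as well 1 and 6. Without 6-month replicate 4, 3 clock genes were called higher as deposited. Among libraries without Y-linked transcripts 0 clock genes were called higher and 2 lower, and with the GC offset as well edgeR called none. The SCA6 84Q/+ cerebella share no library with this comparison but share ID numbers with it. In them 3 were higher (Arntl 0.50, Npas2 0.76, Nfil3 0.60) and 6 were lower (Dbp -0.97, Ciart -0.91, Tef -0.40, Nr1d2 -0.40, Bhlhe41 -0.39 and Nr1d1 -0.36, all log2 fold changes). Without 3-month libraries 2 and 3 of that genotype all 9 were called in the same directions, among 3 higher and 7 lower. In WT mice Ciart averaged 14.8 CPM at 12 months and 16.3 CPM at 19 months, close to 6 months, whereas Nr1d2 averaged 329.8 and 335 CPM, nearer to 3 months. No source used here states the time of day of tissue collection, so age and time of collection cannot be told apart.

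Promoter motifs were counted over 250 bases before and 50 after each gene start, on both strands. The E-box was present in 4 of the 6 lower clock genes that had an entry (Cry1, Tef, Bhlhe41 and Ciart), in 0 of 4 higher ones and in 11.6% of 9847 tested genes. The receptor motif was present in 2 of the 4 higher genes, in Nfil3 at -12 and in Arntl at 30 bases after the start, in 0 of the 6 lower genes and in 2.14% of tested genes. The sterol motif was present in 1 of 7 lower cholesterol genes, Hmgcs1, at -137, and in 1.5% of tested genes. These are matches of letters in a short window and were not tested.

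Receptors for the inhibitory transmitters GABA and glycine were lower where called, with a single exception. Of 18 genes 9 were lower and 1 was higher, against 5.11% and 8.2% of all genes, with a median of -0.351. Gabra2, an alpha subunit of synaptic receptors, was present at 47.2, 48.5, 48.6, 45.2 and 47.9 CPM at 3 months and 34.1, 40.037, 28.6, 32.9 and 34.4 CPM at 6 months (log2 fold change -0.50, adjusted p = 0.00128, standard error 0.076). The 3-month libraries were tightly grouped and all higher. Gabrb2, a beta subunit, fell from a range of 274 to 315 CPM to one of 127 to 251 CPM (log2 fold change -0.60, adjusted p = 0.00852, standard error 0.14). Gabra4 (-0.43), Gabrg1 (-0.57), a subunit of Bergmann glia, and Gabra3 (-0.71) were also lower. Gabrd, the extrasynaptic subunit of granule cells, rose from 176, 136, 164, 171 and 141 CPM to 241, 208, 258, 189 and 184 CPM (log2 fold change 0.43, adjusted p = 0.00962, standard error 0.10). The glycine receptor subunit Glra2, an early form, fell from 5.12, 7.10, 4.60, 5.29 and 6.86 CPM to 2.37, 2.24, 2.22, 3.05 and 3.20 CPM (log2 fold change -1.17, adjusted p = 0.000854, standard error 0.15), with no overlap. Gphn, the scaffold of both receptor types, was at 116 ± 3.69 CPM at 3 months and 118 ± 5.72 at 6 months (SD, n = 5 each), and the metabotropic subunits Gabbr1 and Gabbr2 had log2 fold changes of -0.027 and -0.046.

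Several of these genes are AT-rich, and the GC offset took the median of the list to -0.183. It left Gabra2 (-0.31), Gabrb2 (-0.51), Gabrg1 (-0.33), Glra1 (-2.25) and Glra2 (-1.01) called lower and Gabrd (0.32) called higher, and Gabra3 and Gabra4 were among those no longer called. In SCA6 84Q/+ cerebella 3 of the 18 were lower (Gabrb2, Gabrg3 and Glra2) and Gabrd was higher, and without 3-month libraries 2 and 3 there were 2 lower, Glra2 among them, and 0 higher. Without 6-month replicate 3, 6 WT genes were called lower as deposited. The 5 lower calls of the GC offset became 2 without 6-month replicate 3 and 3 without 3-month replicate 2 or 6-month replicate 4, and Gabrd was then not called without 3-month replicate 2 or 5 or 6-month replicate 1, 2 or 3. With the nuclei score as a covariate 7 were called lower and 0 higher, and with the GC offset as well 3 and 0. Among libraries without Y-linked transcripts none of the 18 was called by edgeR, and the median of the list was -0.115.

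Among glutamate receptors 5 of 27 were higher and 1 was lower, against 8.2% and 5.11% of all genes, with a median of 0.0527. Grin2c, the NMDA receptor subunit that mature granule cells acquire, was present at 297, 233, 279, 301 and 243 CPM and 461, 378, 405, 446 and 397 CPM, without overlap, a log2 fold change of 0.60 (adjusted p = 0.000950, standard error 0.082). Grm4, the presynaptic receptor of parallel fibers, rose from 402, 259, 361, 358 and 252 CPM to 639, 539.7, 637, 576 and 512 CPM (log2 fold change 0.81, adjusted p = 0.00142, standard error 0.13). It stood at 366 and 277 CPM at 12 and 19 months. Grin2a (0.48), the obligatory subunit Grin1 (0.44) and Grik5 (0.33) were also higher, and Grm5 (-0.89) was lower. The nuclei score as a covariate left 3 called higher and 0 lower. Grm5 stood at 12.8, 27.1, 13.4, 10.6 and 24.3 CPM at 3 months and was highest in replicates 2 and 5, in which Grm4 was lowest. Those libraries also held more transcripts of the cerebellar nuclei and brainstem list, and a link was not tested. Grin2a (0.56), Grin2c (0.38) and Grm4 (0.59) were also called higher with the GC offset and Grm5 was called lower. AMPA receptor subunits were not called, with log2 fold changes of -0.094 for Gria1, -0.12 for Gria2, -0.22 for Gria3 and -0.13 for Gria4.

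Granule cell markers gave 4 higher and 0 lower of 18, with a median of 0.154, namely Grin2c, Gabrd, the giant cadherin Fat2 (log2 fold change 0.46, adjusted p = 0.00487, standard error 0.097) and the splicing factor Rbfox3 (log2 fold change 0.46, adjusted p = 0.00255, standard error 0.083). The GC offset left the first 3. With the nuclei score as a covariate 1 marker was called higher and 1 lower, and with the GC offset as well none was by edgeR. The markers Gabra6 (-0.19), Pax6 (0.0043) and Zic1 (0.037) were not called. In Fat2 the 3-month libraries stood at 810.4, 565, 764, 709.7 and 599.97 CPM and the 6-month libraries at 938, 934, 870.2, 1069 and 1016 CPM. Replicates 2 and 5 of 3 months were the lowest. They held more transcripts of the cerebellar nuclei and brainstem list, and a link to Fat2 was not tested. Among libraries without Y-linked transcripts the median of the 18 markers was 0.0371. Of 26 Purkinje cell markers the kinase Prkg1 (0.38) and the repressor Skor2 (0.36) were higher and 0 were lower, against 8.2% and 5.11% of all genes. Of 20 markers of Bergmann glia and astrocytes the water channel Aqp4 was lower (log2 fold change -0.45, adjusted p = 0.00237, standard error 0.080), and of 17 interneuron markers Nxph1 was lower (-0.41). The Purkinje count was 1 without 3-month replicate 2 or 5 or 6-month replicate 1 or 4, and the last 2 counts were 2 without 3-month replicate 1. Skor2 was not called with the GC offset.

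Of 37 genes for ion channels of ataxia or of Purkinje cell firing 7 were called higher and 2 lower, against 8.2% and 5.11% of all genes, with a median of 0.0514. Kcnc1, the fast Kv3.1 potassium channel, stood at 598, 548, 605, 589.8 and 506 CPM at 3 months and 885, 730.2, 827, 799 and 760.1 CPM at 6 months (log2 fold change 0.47, adjusted p = 0.00102, standard error 0.066). All 6-month libraries were higher. The L-type calcium channel Cacna1c rose from a range of 78.8 to 102 CPM to one of 119 to 152 CPM (log2 fold change 0.52, adjusted p = 0.00148, standard error 0.081), the A-type potassium channel Kcnd2 from a range of 276 to 330.3 CPM to one of 365 to 501 CPM (log2 fold change 0.47, adjusted p = 0.00423, standard error 0.095) and the sodium channel partner Fgf14 from a range of 95.9 to 150.4 CPM to one of 149 to 205 CPM (log2 fold change 0.50, adjusted p = 0.0105, standard error 0.12). The calcium release channel Ryr1 (0.52) was higher as well, and Kcna1 (-0.40) and the glial channel Kcnj10 (-0.33) were lower. The GC offset gave 6 higher and 3 lower. Kcnmb4 was then called higher (0.37), and Cacna1a was not called. With the nuclei score as a covariate 3 channel genes were called higher and 0 lower, and with the GC offset as well 1 and 0. Among libraries without Y-linked transcripts edgeR called none of the 37, with a median of 0.0368. The 3 lower calls of the GC offset became 1 without 3-month replicate 2 or 5 or 6-month replicate 1 or 3. As deposited, 1 channel gene was lower without any 1 of 3-month replicates 2 and 5 or of 6-month replicates 1, 3 and 4.

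Cacna1a, at chr8:84388440-84640246 in GRCm38, encodes the pore of the P/Q-type calcium channel and is the gene that carries the repeat in the model. In these WT mice it was present at 417, 322, 388, 373 and 332 CPM at 3 months and 527, 464, 464, 525 and 452 CPM at 6 months. Every 6-month library was above every 3-month library, and the log2 fold change was 0.39 (adjusted p = 0.00388, standard error 0.077). With the GC offset the log2 fold change was 0.21 and it was not called (adjusted p = 0.0889), and in SCA6 84Q/+ cerebella the log2 fold change was 0.18 (adjusted p = 0.0719), or 0.21 without 3-month libraries 2 and 3 (adjusted p = 0.13). WT means were 385 CPM at 12 months and 358 CPM at 19 months. The Cacna1a transcript is GC-rich, at 58.35%. The log2 fold change of Cacna1a was 0.22 with the nuclei score as a covariate and 0.19 in libraries without Y-linked transcripts, and it was not called in either.

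Chaperones of the endoplasmic reticulum (ER) fold secreted and membrane proteins and are induced by the unfolded protein response. As a group of 56 genes they yielded 1 call, the ubiquitin ligase Syvn1 (log2 fold change 0.39, adjusted p = 0.0337, standard error 0.13), which was not called with the GC offset, and a median of 0.0351. Among all genes 8.2% were called higher and 5.11% lower. The 6-month libraries were divided, however. Hspa5, the chaperone BiP, stood at 303, 345, 359, 306 and 294 CPM at 3 months and 440.2, 459.5, 668, 216 and 209 CPM at 6 months. Replicates 1, 2 and 3, of ID numbers 7, 7 and 8, lay above every 3-month library and replicates 4 and 5, of ID number 10, below every one, and the log2 fold change was 0.29 (adjusted p = 0.430, standard error 0.27). Hsp90b1, the ER form of HSP90, showed the same division at 688, 689.9, 904, 427 and 411 CPM, against 459 to 501 CPM at 3 months. So did the isomerase Pdia6 (138, 142, 195, 81.5 and 80.8 CPM, against 93.1 to 101) and the transcription factor Xbp1 (148, 146, 191, 73.0 and 74.6 CPM, against 93.3 to 108). Calr, Hyou1 and Creld2 were higher in the same 3 libraries and at or below the 3-month level in the other 2.

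**Figure D5:**
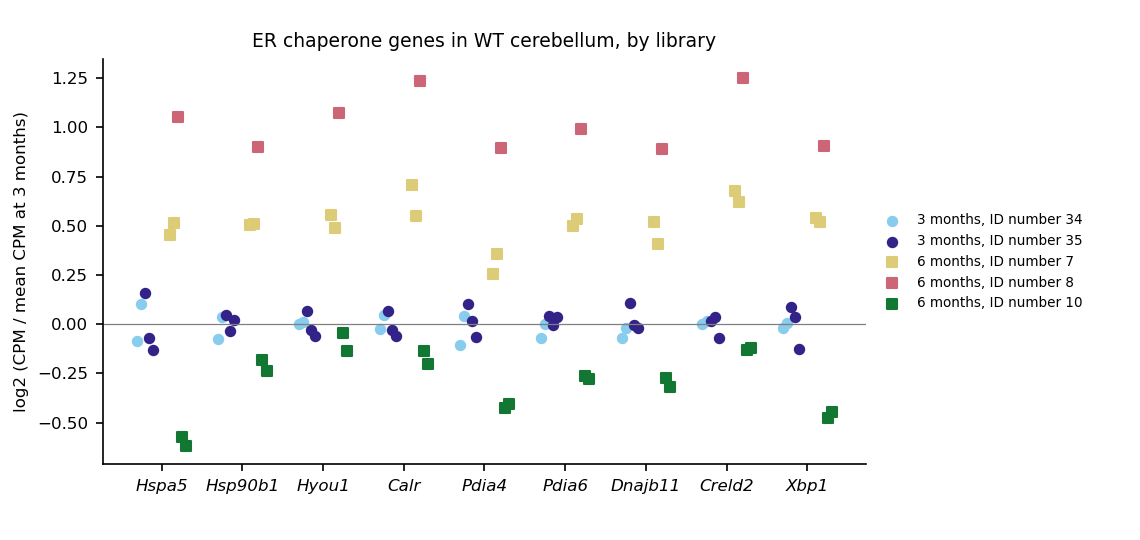
Log2 of CPM over the mean CPM at 3 months for 9 ER chaperone and folding genes in each WT library, circles at 3 months and squares at 6 months, coloured by ID number. The 3-month libraries lie near 0, whereas at 6 months those of ID numbers 7 and 8 lie above 0 and those of ID number 10 below it.

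Syvn1 rested on single libraries too, with 0 ER genes called without any 1 of 3-month replicates 1, 2, 4 and 5 or 6-month replicates 1 and 3, 5 without 6-month replicate 4 and 6 without replicate 5. Without the 2 libraries of ID number 10, 17 ER genes were called higher at 6 months and 0 lower, and without the 2 of ID number 7 there were 2 lower and 0 higher by edgeR. Over all genes 1259 were called higher without ID number 10, and 696 lower without ID number 7. In SCA6 84Q/+ cerebella 16 of 56 were higher between the same ages and 0 lower, among them Hspa5 (0.77, adjusted p = 0.00511), and 9 without 3-month libraries 2 and 3 (Hspa5 0.72, adjusted p = 0.0425). Of all genes tested in that genotype 8.29% were called in either direction. The 6-month SCA6 84Q/+ libraries were of ID numbers 7 and 8 and none was of 10, so the genotypes also differed in ID numbers. The share of ID number in these counts was not tested. The interaction of genotype and age was 0.48 for Hspa5 (adjusted p = 0.480). The cold-inducible gene Rbm3 was divided along the same line, at 144, 121, 124, 227 and 214 CPM at 6 months against 190.5 to 223 CPM at 3 months, with replicates 4 and 5 high, and was not called (-0.36, adjusted p = 0.101). Rbm3 was singled out after its values were seen. What sets the ID numbers apart was not tested.

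Matrix, vessel and growth genes gave scattered calls, beside shares of 8.2% called higher and 5.11% called lower among all genes. Of 11 collagen genes 4 were higher and 7 were not called. Col4a2 of the vascular basement membrane stood at 7.04, 8.35, 7.11, 6.29 and 9.04 CPM against 15.3, 13.039, 19.3, 10.4 and 10.7 CPM (log2 fold change 0.84, adjusted p = 0.00341, standard error 0.16), and Col4a1 (0.57), Col5a1 (0.64) and Col18a1 (0.40) were higher as well. The link protein Hapln1 of perineuronal nets fell from 8.43, 11.2, 8.52, 8.26 and 11.3 CPM to 5.18, 5.42, 4.00, 5.62 and 6.78 CPM (log2 fold change -0.84, adjusted p = 0.00184, standard error 0.14). Of 38 matrix genes 5 were higher and 3 lower. Of 18 endothelial markers the tight junction gene Cldn5 (0.58) and Pecam1 (0.42) were higher, and Slco1a4 (-0.49), Itm2a (-0.59) and Slc16a1 (-0.32) were lower. Of 20 mural and meningeal markers 4 were higher, among them smooth muscle actin Acta2 (0.66), but 0 were called without 3-month replicate 3 or 4 or 6-month replicate 3, 1 without 3-month replicate 2 or 5 and 2 without 6-month replicate 1. Of 29 growth genes 4 were higher, among them Igf1r (0.32) and Mcm5 (0.37), and 5 were lower, among them Dcx (-0.46), Dpysl3 (-0.55) and Igf1 (-0.37). Single libraries moved these counts, to 2 higher growth genes without 3-month replicate 4, to 3 lower without 3-month replicate 2 and 2 without replicate 5, to 1 lower matrix gene without 3-month replicate 5 or 6-month replicate 3 and to 1 higher endothelial gene without the latter. The nuclei score as a covariate left 3 matrix genes called higher and 1 lower, 1 endothelial and 1 growth gene lower, and none of the mural and meningeal markers was called by edgeR. With the GC offset 3 matrix genes were called higher and 2 lower, and 3 growth genes higher and 3 lower. It gave 2 endothelial markers higher and 1 lower and 1 mural and meningeal marker higher, and Igf1 and Slc16a1 were not called.

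Stress and immune lists held few calls, beside shares of 8.2% called higher and 5.11% called lower among all genes. Of 26 glucocorticoid targets 3 were lower, Pdk4 (log2 fold change -0.46, adjusted p = 0.00317, standard error 0.088), Klf9 (-0.38) and Sgk1 (-0.45), and 5 with the GC offset. Of 30 immediate early genes 4 were lower, Klf6 (-0.34), Homer1 (-0.36), Dusp6 (-0.33) and Rgs2 (-0.30), but 0 without 3-month replicate 2 and 2 without any 1 of the other 3-month libraries or 6-month replicate 5. Of 33 interferon and glial ageing genes Irf9 was higher (log2 fold change 0.30, adjusted p = 0.0403, standard error 0.10), and of 17 microglial markers P2ry12 was lower (-0.31), while Cx3cr1 was at 20.953 ± 2.47 CPM at 3 months and 19.8 ± 2.28 at 6 months (SD, n = 5 each). Of 39 heat shock genes Hsf1 (0.43) and Bag3 (0.38) were higher, and of 35 genes of the ATF4 response Cars (0.37) and Chac1 (0.48) were. Of 25 hypoxia targets Bnip3l (log2 fold change -0.37, adjusted p = 0.000653, standard error 0.042) and Pfkfb3 (-0.36) were lower. Of 27 genes listed for other spinocerebellar ataxias or as related to them 3 were higher, Plekhg4, Atxn1 (log2 fold change 0.54, adjusted p = 0.00316, standard error 0.10) and Fat2, and Vamp1 was lower (-0.34). With the nuclei score as a covariate 1 immediate early gene and 1 hypoxia target were called lower and 1 interferon gene and 1 ataxia gene higher, and edgeR called none of the other genes of these lists. The GC offset gave 2 immediate early genes, 1 hypoxia target and 1 ATF4 gene lower, and 1 heat shock gene, 1 interferon gene and 3 ataxia genes higher. Klf6, Homer1, Rgs2, Irf9, P2ry12, Bag3, Cars, Chac1, Bnip3l and Vamp1 were not called with it. Several calls also rested on single libraries. Glucocorticoid targets numbered 5 lower without 6-month replicate 1, ATF4 genes 4 higher without 6-month replicate 4 and heat shock genes 1 higher without 6-month replicate 3. Interferon genes numbered 0 without 3-month replicate 1 or 4 or 6-month replicate 3 or 4, 2 without 3-month replicate 5 and 4 without 6-month replicate 2. P2ry12 was not called without 3-month replicate 2 or 5 or 6-month replicate 1 or 3, nor Vamp1 without 3-month replicate 2 or 5 or 6-month replicate 1, 2 or 4.

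The largest increases, among genes with a mean log2 CPM of at least 1, were in genes of low abundance. Col7a1, an anchoring collagen, rose from 4.03, 3.74, 3.92, 4.35 and 4.23 CPM to 13.017, 8.9993, 15.5, 10.6 and 8.18 CPM, a log2 fold change of 1.45 (adjusted p = 0.000653, standard error 0.16). Plekhg4, an exchange factor for small GTPases, stood at 7.55, 6.81, 6.74, 7.25 and 6.73 CPM against 20.5, 15.1, 23.9, 15.4 and 10.5 CPM (log2 fold change 1.26, adjusted p = 0.00102, standard error 0.18). The actin-bundling gene Avil rose from a range of 1.43 to 2.70 CPM to one of 3.401 to 11.1 CPM (log2 fold change 1.48, adjusted p = 0.00286, standard error 0.28). The lowest 6-month library of each of these 3 genes still lay above the highest of 3 months. Dok3 (1.24), Stac3 (1.18), the potassium channel Kcnk12 (1.14) and the protease Hpn (1.12) followed. All 7 were called higher with the GC offset (Col7a1 1.21, Plekhg4 1.11, Avil 1.36) and in SCA6 84Q/+ cerebella (Col7a1 0.62, Plekhg4 1.01, Avil 1.70), where Col7a1 (0.72, adjusted p = 0.0751) and Kcnk12 (0.60, adjusted p = 0.0945) were no longer called without 3-month libraries 2 and 3. Plekhg4 and Avil then had log2 fold changes of 0.989 and 1.6.

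Among the genes with the smallest adjusted p were Mpp4, a scaffold of synapses, at 18.5, 13.4, 16.9, 15.8 and 15.024 CPM against 30.3, 31.3, 28.2, 31.2 and 28.2 CPM (log2 fold change 0.88, adjusted p = 0.000380, standard error 0.082), Crocc, the rootlet protein of cilia (log2 fold change 0.84, adjusted p = 0.000380, standard error 0.074), Leng8 (log2 fold change 0.76, adjusted p = 0.000380, standard error 0.071) and the low-abundance gene Tmem30c (log2 fold change 1.09, adjusted p = 0.000380, standard error 0.099). In Mpp4 the values within each age were close and the ages far apart, and WT means were 26.981 and 25.4 CPM at 12 and 19 months. Of the abundant genes Syne1, which tethers nuclei to the cytoskeleton, rose from a range of 846 to 1247 CPM to one of 1305 to 1897 CPM (log2 fold change 0.56, adjusted p = 0.00828, standard error 0.13), the noncoding RNA Snhg11 from a range of 1119 to 1203 CPM to one of 1456 to 1642 CPM (log2 fold change 0.40, adjusted p = 0.000698, standard error 0.049) and the splicing scaffold Srrm2 from a range of 593 to 675 CPM to one of 729 to 939.8 CPM (log2 fold change 0.37, adjusted p = 0.00270, standard error 0.069). Among the lower genes were the membrane glycoprotein Gpm6b (log2 fold change -0.46, adjusted p = 0.00213, standard error 0.080), the receptor Calcrl of vessels (log2 fold change -0.68, adjusted p = 0.000653, standard error 0.078), the orphan receptor Gpr165 (-1.13) and Gkn3, an arterial gene, which fell from 7.29, 4.44, 4.73, 5.37 and 4.64 CPM to 1.21, 1.86, 1.71, 3.88 and 2.81 CPM (log2 fold change -1.24, adjusted p = 0.00529, standard error 0.27). Gkn3 averaged 2.64 CPM at 12 months and 2.36 CPM at 19 months, near the 6-month level. Gpm6b was not called with the GC offset. Gm47283, annotated on the Y chromosome, was higher as well (1.43), and its counts were at 9.46, 3.95, 4.18, 4.47 and 3.32 CPM at 3 months although replicates 1, 3 and 4 held hardly any transcripts of Uty, Kdm5d, Ddx3y and Eif2s3y, which are all on that chromosome.

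The same ages in SCA6 84Q/+ cerebella gave 1091 called genes of 13162 (8.29%), and 1103 (8.38%) under the GC offset. Without the libraries labelled as replicates 2 and 3 of 3 months 519 genes were called, and 580 under the GC offset. Of 13030 genes tested in both genotypes 500 were called in both, which is 29.1% of the 1717 called in WT and 46.8% of the 1069 called in SCA6 84Q/+, and 497 of them had the same sign. Of the WT genes 1579 (92%) had the same sign in SCA6 84Q/+, against 70.5% of all genes. Under the GC offset 984 of 1022 (96.3%) did, against 72.6%. Without 3-month libraries 2 and 3 of SCA6 84Q/+ 265 genes were called in both genotypes, which is 15.4% of 1721 and 52% of 510, all with the same sign, and 1634 of the 1721 WT genes (94.9%) had the same sign in SCA6 84Q/+, against 73% of all genes. With the GC offset as well 986 of 1023 (96.4%) did, against 72.5%. The difference between the genotypes in their change with age was called for 23 of 13210 genes (0.174%), 22 of them more negative in SCA6 84Q/+, with 2264 at an unadjusted p under 0.05 by edgeR, and 266 were called by DESeq2. Under the offset 2 were called (0.0151%), Man2c1 and Mroh1, and 1746 had an unadjusted p under 0.05. Leaving out single libraries moved this count between 0 and 415, 415 without WT 6-month replicate 2, 173 without SCA6 84Q/+ 3-month replicate 5, 51 and 38 without SCA6 84Q/+ 6-month replicates 5 and 1 and 43 without WT 6-month replicate 3. It was 1 without SCA6 84Q/+ 6-month replicate 2, 4, 6 and 15 without SCA6 84Q/+ 3-month replicates 1, 3 and 4 and 8 without WT 6-month replicate 5. A count of 0 was reached without any 1 of the WT 3-month libraries, WT 6-month replicates 1 or 4, SCA6 84Q/+ 3-month replicate 2 or SCA6 84Q/+ 6-month replicates 3 or 4, and also without both SCA6 84Q/+ 3-month libraries 2 and 3.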

How the data were processed

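Whole cerebella were flash-frozen by the authors and their mRNA was sequenced as paired reads. The authors used Trimmomatic, then STAR on mm10 (GRCm38), and HTSeq for the deposited counts per gene, which are not normalized. No source used here names versions, annotation or strand setting, and overlapping or antisense genes may share counts. Totals of counts per library were 51121453 to 77183667 at 3 months (median 62594811) and 52226098 to 84506602 at 6 months (median 58945509). CPM values printed are scaled to these totals.

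Here the counts of the 10 WT libraries were normalized with TMM factors, and edgeR 4.0.16 (R 4.3.3) gave quasi-likelihood p-values, adjusted after Benjamini and Hochberg across every gene tested. Only genes with a CPM of 1 or more in every library of either age were tested, so a gene may enter through the age at which it is high. The SCA6 84Q/+ libraries were tested in the same way, and the interaction over 20 libraries. The labels do not say that the libraries of a group are separate animals, and p-values measure the spread between these libraries. Named genes were, among called genes in each direction, the 10 largest fold changes at a mean log2 CPM of 1 or more, the 5 smallest adjusted p and the 5 highest mean CPM. To these came up to 4 called members of each list, the first marker of each cell type, the genes the study names and up to 5 called genes of the interaction in each direction. Some called genes are not reported here. Other list members named were chosen after their values were seen. The members and lists were chosen with earlier results of these data known. The alternatives were DESeq2 1.42.0, limma 3.58.1 voom, other scalings and filters, covariates, each library or ID number left out and, chosen after seeing the data, the offset for GC content (lowess span 0.3), the nuclei score and libraries with or without Y-linked transcripts. Positions were found for 19580 of 21967 genes (89.1%). The lowest chi-square per degree of freedom between 2 of the 10 libraries was 10.3 over 45 pairs, so every pair differed by more than sampling noise. The tests were tried on simulated data.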

Additional observations from a re-analysis of the deposited data

Results flagged for a closer look

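Of 144 groups of 5 libraries tested for a library that stood apart, 11 held one by Dixon's criterion at 95%, which flags about 1 group in 20 by chance. At 3 months replicate 1 was high for Gm47283 (9.458 CPM), Stac3 (5.532 CPM) and Tmem189 (8.577 CPM). Replicate 2 was low for the calcium entry genes Orai2 (73.37 CPM) and Stim1 (87.61 CPM) and high for the cochaperone Dnaja1 (322.7 CPM). Replicate 3 was lowest in summed endothelial markers (916.4 CPM) and replicate 5 lowest in Avil (1.426 CPM). At 6 months replicate 5 was highest for Glra1 (4.153 CPM) and Meis2 (9.666 CPM), and replicate 1 was lowest in summed choroid plexus markers (219 CPM).

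The change with age was called as different between genotypes in 23 genes by the interaction test. This count was 0 without SCA6 84Q/+ 3-month libraries 2 and 3, and 0 with Y-linked transcripts as a covariate. The log2 change from 3 to 6 months in SCA6 84Q/+ minus that in WT was 0.332 for Scd3, -0.481 for Man2c1, -0.461 for Mroh1, -0.808 for Radil, -0.455 for Abca2 and -0.49 for Myo19. With the GC offset Man2c1 and Mroh1 were called (-0.33 and -0.31) and the other 4 were not.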

How the results depend on the processing

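The 1741 WT calls became 4024 with no minimum fold change, 39 with a log2 minimum of 1, 1037 with the GC offset, 1034 with GC and length offsets, 638 with the nuclei score as a covariate, 1022 without 6-month replicates 1 and 3, 2644 in libraries with Y-linked transcripts and 22 in those without (3089 at an unadjusted p under 0.05). Without ID number 35 edgeR called 0 (3079 at an unadjusted p under 0.05). With each library left out there were 1334 to 2109. DESeq2 gave 1816, limma voom 1424 and other scalings 1743 to 1775. The GC-offset count of 1037 became 239 with the nuclei score, 687 without ID number 34, 0 without ID number 35 (2700 at an unadjusted p under 0.05), 644 without 6-month replicates 1 and 3, 1658 in libraries with Y-linked transcripts, 0 in those without (2679 at an unadjusted p under 0.05) and 736 to 1278 with each library left out. The SCA6 84Q/+ count was 519 without 3-month replicates 2 and 3, 580 with the GC offset as well, and 832 to 1414 with each library left out. The interaction count of 23 became 266 with DESeq2, 2 with the GC offset and 0 when Y-linked transcripts were a covariate or without SCA6 84Q/+ 3-month replicates 2 and 3, and was 0 to 415 with each library left out. Log2 fold changes changed sign with the nuclei score as a covariate for Glra1 (0.24), Meis2 (0.11) and Spp1 (0.042), of which Meis2 and Spp1 are part of that score, and in libraries without Y-linked transcripts for Glra1 (0.22), Meis2 (0.0036) and Ndst4 (0.00075). Causes were not tested, and the nuclei score was built from genes that were themselves called lower. Of the 109 named genes called, 36 were lost with the GC offset, 54 with the nuclei score and 109 without ID number 35.

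Same-numbered libraries of both ages deviated together at correlations of -0.219 to 0.303, above 0.1 in 1 of 5 pairs, and 1 of 5 was closest to its own number. The samples share only a number. With the replicate number as a block 1663 WT genes were called, 976 with the GC offset, 997 in SCA6 84Q/+ and 4 for the interaction. Genes under 1 CPM at both ages were not tested, which limits statements on rare transcripts.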
